A study of Homo sapiens with 12 samples.

Results

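The control cultures of 2 human neuroblastoma lines were compared with each other by RNA sequencing. Neuroblastoma is a childhood tumour of the developing sympathetic nervous system. The comparison rests on 3 libraries per line, 6 of the 12 libraries in the series, and on every gene whose level averaged at least 0.5 FPKM (reads scaled for gene length and library depth) over these 6. That was 15981 of the 58735 genes in the deposited table, or 27.2%. The series was made to study TSPYL5, one of the TSPY-like and NAP proteins that bind histones, and its other 6 libraries carry a hairpin against that gene.

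One control group, here SK-N-SH control, is SK-N-SH in every label. The other is titled SK_N_BE2 but carries SH-SY5Y under source and cell line, and is called SK_N_BE2 control here after its titles. All 6 libraries carry the control hairpin, shNC, so none is from cells without a hairpin. In both, the labels give the genotype as WT, the treatment as None and the cell type as Neuroblastoma. Each group is a single line, so a difference between the groups is one between these libraries and not between 2 kinds of tumour. The labels do not say whether the 3 libraries of a group came from separate cultures, and p-values then measure only the spread between libraries, which may be technical.

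Cultured neuroblastoma cells are known to take 2 broad identities. Noradrenergic cells keep the sympathetic programme, in which the transcription factors PHOX2A, HAND2, GATA3 and ISL1 hold each other's genes active and drive the enzymes that make noradrenaline. Mesenchymal cells resemble migratory neural crest and connective tissue, with factors such as PRRX1, the AP-1 member FOSL1 and the YAP and TAZ coactivators, and with matrix, adhesion and contractile genes. SK-N-SH is known for holding cells of both kinds, SH-SY5Y was subcloned from it and is noradrenergic without MYCN amplification, and SK-N-BE(2) is known for MYCN amplification.

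The libraries held 18014544 to 18909666 reads in SK-N-SH control and 15425460 to 16459726 in SK_N_BE2 control, and 24215 to 25350 genes had a read. Mitochondrial reads took 6.25% to 6.64% in SK-N-SH control and 7.18% to 7.76% in SK_N_BE2 control. Across genes, log2 levels of libraries in the same group correlated at r = 0.988 to 0.990, and those of libraries in different groups at r = 0.699 to 0.718. This is a description across genes, which are not independent replicates. The libraries labelled knockdown, used here only as a check of the labels, looked like the control of the other line. MYCN averaged 1040.4 ± 33.3 FPKM (SD, n = 3) in SK_N_BE2 control but 0 FPKM in the libraries labelled SK_N_BE2 knockdown, and 0.0408 FPKM in SK-N-SH control but 1028 FPKM in those labelled SK-N-SH knockdown. PRRX1 averaged 0.0501 FPKM in SK_N_BE2 control and 152 FPKM in its labelled knockdown, and 137 FPKM in SK-N-SH control and 0.0693 FPKM in its labelled knockdown. TSPYL5 itself was 24.7 FPKM in SK_N_BE2 control against 12.8 FPKM in its labelled knockdown. In SK-N-SH control it was 12.9 FPKM against 17.7 FPKM in its labelled knockdown, which goes against the label. Paired by MYCN and PRRX1 instead, SK_N_BE2 control stands against the labelled SK-N-SH knockdown, at 24.7 and 17.7 FPKM. SK-N-SH control then stands against the labelled SK_N_BE2 knockdown, at 12.9 and 12.8 FPKM. An effect of the hairpin on TSPYL5 was not tested. The MYCN level of SK_N_BE2 control goes against the SH-SY5Y name in its other labels. The MYCN levels of the labelled knockdowns go against the names SK_N_BE2 and SK-N-SH that those libraries carry. How the labels came to differ from the data cannot be told from the table, so each group below means the libraries so labelled.

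Most measured genes differed between the groups. With limma on log2(FPKM + 1) and Benjamini-Hochberg adjustment over all genes tested, 12643 of the 15981 genes (79.1%) passed an adjusted p of 0.05. Of these, 6455 (40.4% of those tested) were higher in SK_N_BE2 control and 6188 (38.7%) in SK-N-SH control. A difference of at least 1 on the log2 scale, which is 2-fold on that scale, was reached by 4963 of the called genes (31.1%), 2420 higher in SK_N_BE2 control and 2543 in SK-N-SH control. The libraries of the groups did not overlap in 12954 genes (81.1%). These shares are the background for every count below: a list with 4 in 5 members called is ordinary here, so the direction and size are given beside each count. The median difference, SK_N_BE2 minus SK-N-SH, was 0.02 over all tested genes. The deposited FPKM were scaled in proportion to size factors from the median of ratios between libraries, which places such a median near 0. This median and the near-even split therefore cannot show whether one direction prevailed in total RNA. A fold is the ratio of the group means in FPKM, while differences and medians are on the log2(FPKM + 1) scale, which understates the change of low genes. A fold against a group with 0 reads is a lower bound, set by what 3 reads summed over that group are worth in FPKM, and such floors cover counting error only.

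Some genes were read in a single group. A gene near 0 FPKM in one group passed the minimum level through the other alone and could be called in that direction only. This holds for such members of every list below. There were 219 genes with 0 reads in SK-N-SH control and at least 1 FPKM on average in SK_N_BE2 control, 71 of them protein-coding, and 17 of the 219 reached 10 FPKM. In the other direction there were 179 such genes, 63 of them protein-coding, and 24 reached 10 FPKM. Called genes with a fold of at least 100 numbered 286 higher in SK_N_BE2 control and 175 higher in SK-N-SH control, counting lower bounds and leaving out genes with 1 to 3 reads in the lower group. Abundant shared genes differed less: of the 3006 genes at 10 FPKM or more in both groups, 2405 (80.0%) differed by less than 2-fold and 563 were not called. GAPDH, a glycolytic enzyme often used as a reference, gave 703, 692 and 677 FPKM in SK_N_BE2 control and 678, 692 and 739.5 FPKM in SK-N-SH control, and was not called (adjusted p = 0.7).

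**Figure D1:**
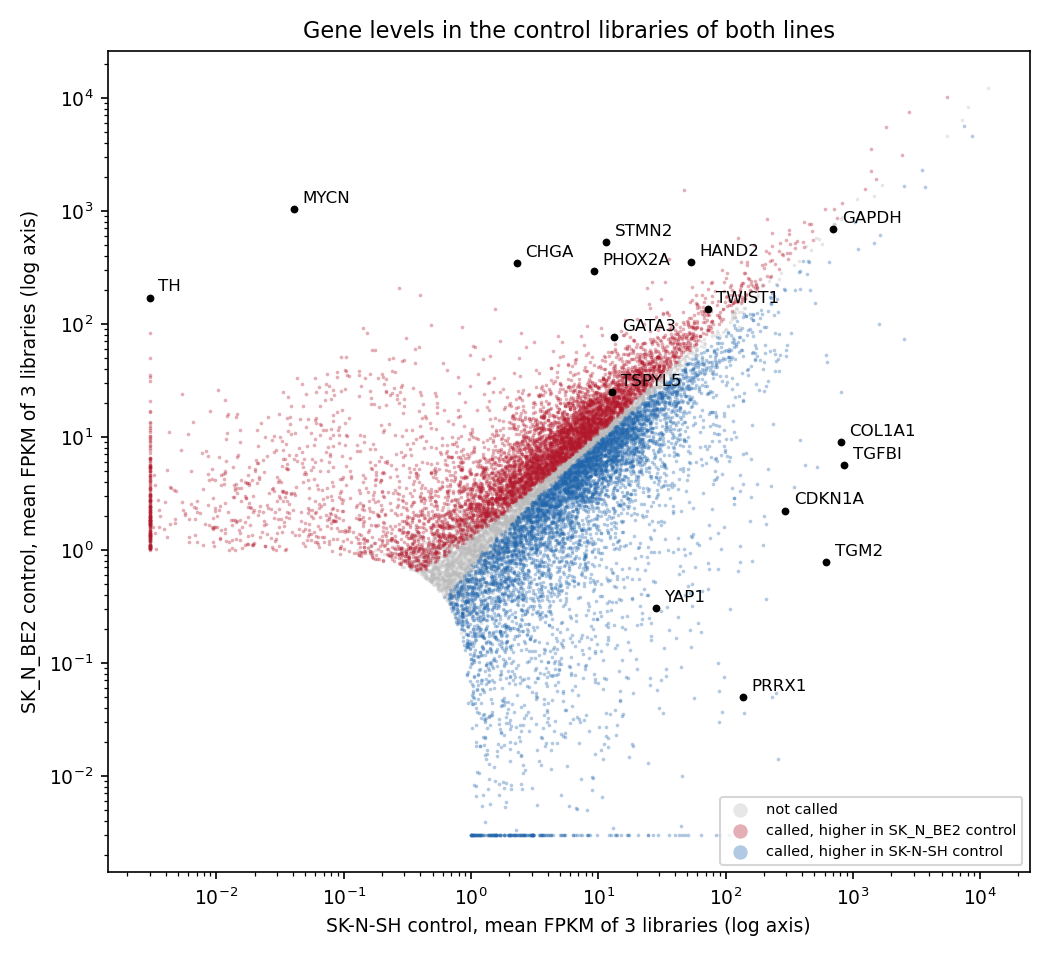
Mean FPKM of each tested gene over the 3 SK-N-SH control libraries (horizontal, log axis) and the 3 SK_N_BE2 control libraries (vertical, log axis); genes listed at 0 are drawn at the edge, Y-linked genes are not drawn, and colour gives the call. MYCN and TH lie far above the diagonal, TGM2 and PRRX1 far below it, and GAPDH on it.

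The protein-coding genes with the widest gaps on the log2 scale came largely from the noradrenergic and mesenchymal programmes. Toward SK_N_BE2 control they were MYCN, TH, GAL, CD24, CHGA, INSM2, NEFM, NSG2, IGFBPL1 and NNAT. These include the amplification target MYCN, a noradrenaline synthesis enzyme, a neuropeptide, a secretory granule protein and a neurofilament subunit. Toward SK-N-SH control they were TGM2, SLC38A4, FAM129A, POSTN, TNC, FBN2, PRRX1, TGFBI, EDIL3 and COL8A1, of which POSTN, TNC, FBN2, TGFBI, EDIL3 and COL8A1 encode matrix proteins. Transglutaminase TGM2, which crosslinks matrix, was 573, 791 and 492 FPKM in SK-N-SH control and 0.757, 0.904 and 0.691 FPKM in SK_N_BE2 control, a 789-fold difference.

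The transcription factors of the sympathetic lineage were nearly all higher in SK_N_BE2 control. Of 20 in the list, all were tested, 18 were higher in SK_N_BE2 control and 2 in SK-N-SH control, with a median difference of 2.83. PHOX2A, a homeodomain factor of the core circuit, was 308, 292 and 283 FPKM in SK_N_BE2 control and 6.04, 10.3 and 11.4 FPKM in SK-N-SH control. The groups did not overlap, and SK-N-SH control kept a low but clear level, 31.9-fold below (log2 difference 4.89 ± 0.20 SE, adjusted p = 7.0e-07).

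The remaining core factors split by how much SK-N-SH control retained. HAND2 was 356, 352 and 346 FPKM in SK_N_BE2 control and 57, 47.3 and 57.7 FPKM in SK-N-SH control, a 6.51-fold gap, and reads of HAND2 and its antisense gene cannot be told apart without strand. GATA3, a zinc finger factor of the same circuit, averaged 76 ± 3.83 and 13.2 ± 0.649 FPKM (SD, n = 3) in SK_N_BE2 and SK-N-SH control, and the LIM homeodomain factor ISL1 42.9 ± 1.48 and 9.27 ± 0.612 FPKM. These 2 factors and HAND2 were thus 4.63 to 6.51 times lower in SK-N-SH control but still well above 1 FPKM in each of its libraries. By contrast GATA2, the relative of GATA3, was 64.3, 61.8 and 62.3 FPKM in SK_N_BE2 control and 1.01, 1.09 and 1.10 FPKM in SK-N-SH control. It was 58.8-fold lower in SK-N-SH control, near 1 FPKM in each library. HAND1 (202-fold), TFAP2B (161-fold), SIX3 (222-fold) and INSM2 (643-fold) were lower still in SK-N-SH control, averaging 0.246, 0.289, 0.162 and 0.142 FPKM. INSM1 had 0 reads in SK-N-SH control against 2.65 FPKM in SK_N_BE2 control.

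The list also had exceptions. TBX2, a T-box repressor, was 26.1, 25.9 and 26.6 FPKM in SK_N_BE2 control and 45.6, 37.3 and 42.8 FPKM in SK-N-SH control, 1.6-fold higher in SK-N-SH control with no overlap. MEIS2, a cofactor of homeodomain proteins, differed little, at 13.7 ± 0.253 and 15.3 ± 0.589 FPKM, and its call was lost with voom on the recovered reads and without SK_N_BE2 control library 2.

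The first enzyme of the catecholamine pathway had the widest gap of its list. TH, the rate-limiting enzyme that makes L-DOPA from tyrosine, was 168, 174 and 169 FPKM in SK_N_BE2 control and 0 FPKM in all 3 in SK-N-SH control. No SK-N-SH control library had a TH read, against 28035 reads over the 3 SK_N_BE2 control libraries. The floor of 3 reads over SK-N-SH control equals 0.0165 FPKM, which makes the difference at least 10356-fold. DDC, which turns L-DOPA into dopamine, was 60.04, 62.7 and 57.1 FPKM in SK_N_BE2 control and 0.325, 0.320 and 0.444 FPKM in SK-N-SH control, a 165-fold gap. DBH, which turns dopamine into noradrenaline, was low in both, 6.54, 5.85 and 5.42 FPKM in SK_N_BE2 control and 2.66, 1.93 and 1.84 FPKM in SK-N-SH control, and its 2.77-fold difference was far smaller than those of the steps before it (log2 difference 1.15 ± 0.11 SE, adjusted p = 5.8e-05). GCH1, which makes the TH cofactor, and SLC6A2, the noradrenaline transporter, were 18.8-fold and 23.1-fold higher in SK_N_BE2 control. Of 7 tested in the list, 5 were higher in SK_N_BE2 control and 2 in SK-N-SH control, 1 of them the electron carrier CYB561 (1.31-fold). PNMT, the vesicular transporters SLC18A1 and SLC18A2 and the oxidases MAOA and MAOB stayed under the minimum level. In bulk libraries, fewer cells of a type and less RNA per cell cannot be told apart, here and below.

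**Figure D2:**
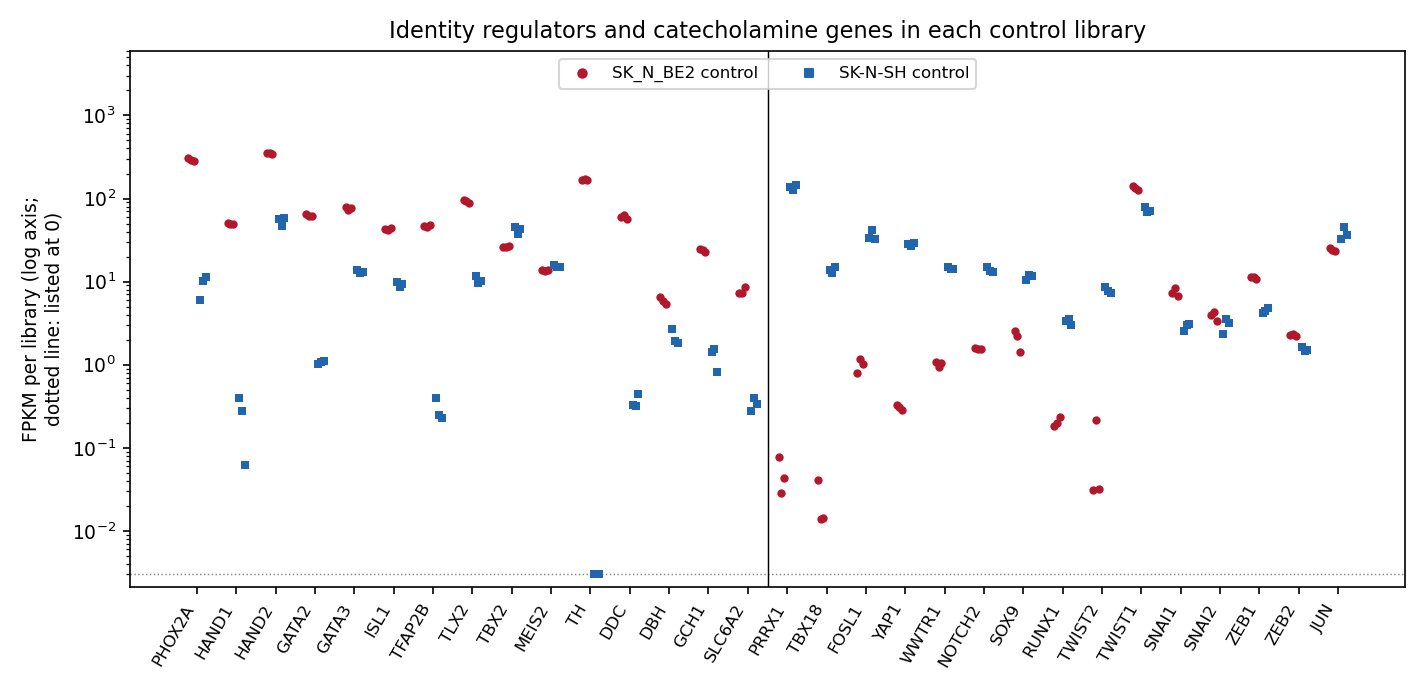
FPKM of 15 noradrenergic factors and catecholamine genes (left of the line) and 15 mesenchymal factors (right) in each of the 6 control libraries, on a log axis, with values listed at 0 on the dotted line. The 3 libraries of a group sit close together for most genes. TH is at 0 in SK-N-SH control, PRRX1 is under 0.1 FPKM in SK_N_BE2 control, and TWIST1, SNAI1, ZEB1 and ZEB2 lie higher in SK_N_BE2 control.

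Genes of dense-core secretory granules, the vesicles that store catecholamines and peptides, moved mostly with the enzymes. Of 11 tested genes of 17, 8 were higher in SK_N_BE2 control and 3 in SK-N-SH control. Chromogranin A, CHGA, was 347, 341 and 338 FPKM in SK_N_BE2 control and 2.82, 1.74 and 2.31 FPKM in SK-N-SH control, a 149-fold difference. The peptide galanin, GAL, was 203, 215 and 202 FPKM in SK_N_BE2 control and 0.248, 0.244 and 0.329 FPKM in SK-N-SH control, and 756-fold apart. CHGB (60.3-fold) and SCG3 (151-fold) followed. The 3 exceptions were the granin VGF, at 60.2, 62.3 and 53.4 FPKM in SK_N_BE2 control and 255, 264 and 384 FPKM in SK-N-SH control, 5.13-fold higher in SK-N-SH control, the processing enzyme CPE (2.65-fold) and SCG2 (1.43-fold). SK-N-SH control was therefore not low in all granule transcripts, and VGF in its library 3 was the highest of the 6.

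CHGA is known to be driven through a cyclic AMP response element near its start. Its promoter is shown because CHGA had one of the widest differences. The 250 bases before the start, from RefSeq on GRCh38.p14, hold the element TGACGTCA in capitals, at -54 to -47. The deposited table starts CHGA upstream of this RefSeq start, at 92923080, so by its coordinates the element lies inside the gene.
CHGA (chr14:92922900-92923149, plus strand): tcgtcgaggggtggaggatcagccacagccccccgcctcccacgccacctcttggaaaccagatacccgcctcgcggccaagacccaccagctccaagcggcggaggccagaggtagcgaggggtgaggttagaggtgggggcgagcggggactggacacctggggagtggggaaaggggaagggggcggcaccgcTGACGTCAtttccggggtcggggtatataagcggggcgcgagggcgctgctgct
The element was found in 2 of the 8 promoters of the granin and neuropeptide list that have a single start in the table. It was in 3.83% of the 7020 such promoters of tested protein-coding genes. Both counts searched whole promoter entries, not cut to 250 bases. A match is only a description of the letters.

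Neuronal cytoskeleton and RNA-binding genes went almost wholly one way. Of 24 tested, 23 were higher in SK_N_BE2 control and 0 in SK-N-SH control, with a median difference of 3.40. STMN2, a growth cone protein that destabilises microtubules, was 524, 536 and 525 FPKM in SK_N_BE2 control and 12.3, 11.5 and 10.9 FPKM in SK-N-SH control, a 45.6-fold gap. The neurofilament and intermediate filament genes NEFM (541-fold), NEFL (534-fold) and INA (110.5-fold) and the neuronal RNA-binding gene ELAVL3 (347-fold) were further apart. MAP1B, a microtubule protein of growing axons, was the exception, at 61.5, 54.1 and 59.3 FPKM in SK_N_BE2 control and 56.9, 60.2 and 57.6 FPKM in SK-N-SH control (adjusted p = 0.99), and SK-N-SH control thus had a neuronal microtubule gene at the same measured level. Among synapse and channel genes, 25 of 28 were higher in SK_N_BE2 control and 2 in SK-N-SH control, where SV2A (1.52-fold) and STX1A (1.19-fold) encode parts of the vesicle release machinery. The STX1A call was lost with voom and without any of SK_N_BE2 control libraries 1 and 3 and SK-N-SH control library 2. The potassium channel gene KCNH2, the complexin CPLX2 and the synaptotagmin SYT4 were 160.3-fold, 777-fold and 223-fold higher in SK_N_BE2 control.

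Receptors and surface proteins of neuroblasts were more mixed. Of 18 tested among 28, 14 were higher in SK_N_BE2 control and 4 in SK-N-SH control. The adhesion glycoprotein CD24 was 179, 183 and 175 FPKM in SK_N_BE2 control and 0.398, 0.427 and 0.363 FPKM in SK-N-SH control, 453-fold apart, though CD24 has near-identical copies that could share its reads. The Notch-family ligand DLK1 (60.9-fold), the axonal adhesion protein L1CAM (159-fold) and the receptor RET (61.6-fold) were next. ALK, the receptor kinase mutated in part of familial neuroblastoma and named here after its values were seen, was 15.5, 14.1 and 14.6 FPKM in SK_N_BE2 control and 0.0583, 0.0575 and 0.0654 FPKM in SK-N-SH control, a 244-fold difference. Higher in SK-N-SH control were CNTNAP2 (9.39-fold), PLXNA4 (4.02-fold), CD276 (1.69-fold) and ROBO1 (1.29-fold). CD276 (B7-H3) and ROBO1, an axon guidance receptor, thus differed less than 2-fold between these groups.

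MYCN set the groups apart more than any other protein-coding gene on the log2 scale. It encodes the MYC-family factor amplified in high-risk neuroblastoma and lies on chromosome 2, 15940564 to 15947007 (GRCh38). Levels were 1043, 1072 and 1006 FPKM in SK_N_BE2 control and 0, 0.0813 and 0.0411 FPKM in SK-N-SH control. There were 137403 MYCN reads over the 3 SK_N_BE2 control libraries and 6 over the 3 SK-N-SH control libraries (log2 difference 9.97 ± 0.049 SE, adjusted p = 7.3e-10). The antisense gene MYCNOS, which overlaps it, was 71.3, 86.6 and 92.2 FPKM in SK_N_BE2 control and 0 FPKM in all 3 in SK-N-SH control, and without strand its reads cannot be told apart from those of MYCN. MYC, the family member expressed in most other cells, went the other way at 2.50, 3.00 and 2.91 FPKM in SK-N-SH control and 0.136, 0.312 and 0.221 FPKM in SK_N_BE2 control, 12.5-fold higher in SK-N-SH control but low in both groups.

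Genes next to MYCN were also higher in SK_N_BE2 control, a view chosen after earlier results were known. Of the other tested genes that start within 0.5 Mb of MYCN, 8 of 8 were called higher in SK_N_BE2 control. Within 2 Mb it was 12 of 12, with a median difference of 1.86. Within 0.5 Mb all but DDX1 had 0 to 0.0044 FPKM in SK-N-SH control, and VSNL1 farther out had 0.163 FPKM. Such genes passed the minimum level through SK_N_BE2 control alone and could be called in that direction only. Those within 2 Mb above 1 FPKM in both groups were DDX1, NBAS (1.90-fold), SMC6 (2.27-fold) and GEN1 (3.99-fold). Within 10 Mb the count was 58 of 89 with 12 lower and a median of 0.69, against 40.4% higher over all genes. DDX1, an RNA helicase gene often co-amplified with MYCN, was 90.1, 90.5 and 83.4 FPKM in SK_N_BE2 control and 29.6, 30.9 and 28 FPKM in SK-N-SH control, which at 2.98-fold is far below the MYCN gap. VSNL1, a neuronal calcium sensor, and GREB1, a hormone-responsive gene, were 48.4-fold and 127-fold higher. OSR1, a mesodermal zinc finger factor in the same region, was 17.7, 16.4 and 18.3 FPKM in SK-N-SH control and 0.0220, 0.0110 and 0.0114 FPKM in SK_N_BE2 control and 1178-fold higher in SK-N-SH control. DNA copy number was not measured.

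**Figure D3:**
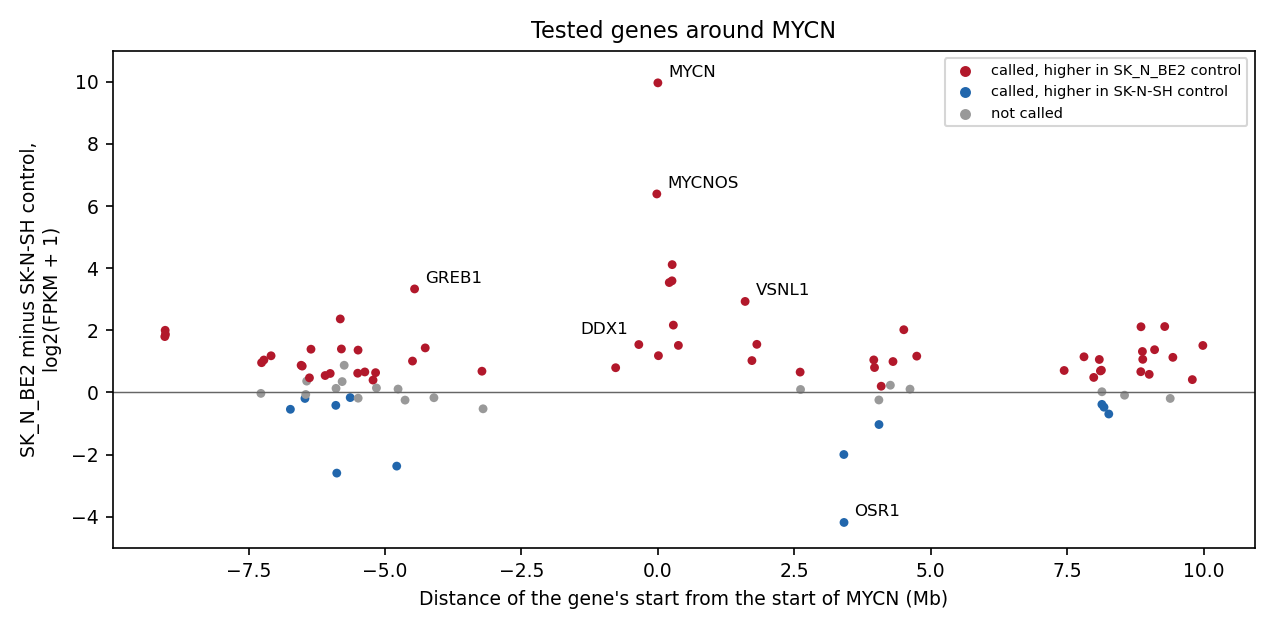
Difference between SK_N_BE2 and SK-N-SH control on the log2(FPKM + 1) scale for each tested gene within 10 Mb of MYCN, by the distance of its start from that of MYCN. MYCN and the 12 other genes within 2 Mb are above 0, most of them tested only through their level in SK_N_BE2 control. Genes on both sides of 0 appear farther away.

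Genes of the MYC network and its classical targets leaned toward SK_N_BE2 control, 23 of 28 higher and 4 lower, with a median of 0.74. After MYCN itself, the widest log2 differences toward SK_N_BE2 control were those of the nucleolar genes NOLC1 (4.04-fold) and NCL (2.79-fold) and the pyrimidine synthesis gene CAD (2.94-fold). Besides LDHA and MYC itself, the MYC antagonists MXD4 (1.87-fold) and MNT (1.16-fold) were higher in SK-N-SH control, where the MNT call was lost without a minimum level, with voom, with the replicate block and in 4 of the 6 fits that left out a library.

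PRRX1, the homeodomain factor most tied to mesenchymal neuroblastoma, headed the factors of SK-N-SH control. It was 138, 127 and 147 FPKM in SK-N-SH control and 0.0780, 0.0284 and 0.0439 FPKM in SK_N_BE2 control, a 2743-fold gap. Of 38 mesenchymal factors tested, 28 were higher in SK-N-SH control and 6 in SK_N_BE2 control, with a median of -0.87. FOSL1, an AP-1 subunit, was 33.2, 41.2 and 32.2 FPKM in SK-N-SH control and 0.806, 1.18 and 1.02 FPKM in SK_N_BE2 control, 35.4-fold apart. RUNX1 (15.9-fold), RUNX2 (49.2-fold), TWIST2 (84.6-fold), TBX18 (595-fold), NOTCH2 (8.93-fold), SOX9 (5.49-fold) and the glucocorticoid receptor NR3C1 (9.40-fold) were also higher in SK-N-SH control.

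Factors named for epithelial-mesenchymal transition were divided. TWIST2 was 84.6-fold higher in SK-N-SH control, the direction of PRRX1, and others were higher in SK_N_BE2 control. TWIST1 was 139.6, 135 and 128 FPKM in SK_N_BE2 control and 78.9, 69.4 and 70.8 FPKM in SK-N-SH control, 1.84-fold higher in SK_N_BE2 control with no overlap. SNAI1 was 7.32, 8.48 and 6.77 FPKM in SK_N_BE2 control and 2.51, 3.01 and 3.11 FPKM in SK-N-SH control, 2.61-fold higher there too. ZEB1 (2.48-fold) and ZEB2 (1.48-fold) had the same direction. SNAI2, a mesenchymal marker in neural crest, averaged 3.90 ± 0.486 and 3.03 ± 0.640 FPKM in SK_N_BE2 and SK-N-SH control and was not called (adjusted p = 0.081), though it was called toward SK_N_BE2 control among protein-coding genes alone, in the fit to all 12 libraries, with voom and without SK-N-SH control library 2. The homeodomain gene DLX1 (42.3-fold) and the RUNX partner CBFB (1.38-fold) completed the 6 called against most of the list. Of the AP-1 and early genes in the list, FOSL2 (adjusted p = 0.29), JUNB (0.69) and ID1 (0.41) were not called.

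YAP1 and WWTR1, which encode the Hippo pathway coactivators YAP and TAZ, had levels near 1 FPKM or below in SK_N_BE2 control. YAP1 was 28.5, 27.1 and 29.3 FPKM in SK-N-SH control and 0.325, 0.307 and 0.288 FPKM in SK_N_BE2 control, 92.2-fold apart, and WWTR1 15.2, 14.1 and 14.2 FPKM in SK-N-SH control and 1.09, 0.940 and 1.05 FPKM in SK_N_BE2 control, 14.1-fold apart. Their DNA-binding partners differed far less, with TEAD1, TEAD2 and TEAD3 1.62-fold, 1.71-fold and 1.38-fold higher in SK-N-SH control. Of 22 known targets tested, 17 were higher in SK-N-SH control and 3 in SK_N_BE2 control, with a median of -1.84. CCN2, the connective tissue growth factor, was 102, 72.5 and 42.6 FPKM in SK-N-SH control and 0.800, 0.901 and 0.593 FPKM in SK_N_BE2 control. All 3 SK-N-SH control libraries were far above SK_N_BE2 control (94.7-fold), yet library 1 was more than 2 times library 3. ANKRD1, a muscle ankyrin repeat protein and sensitive YAP target, was 28.5, 36.3 and 12.8 FPKM in SK-N-SH control and 1.18, 1.66 and 0.884 FPKM in SK_N_BE2 control, and was among the 5 protein-coding genes with the largest spread between SK-N-SH control libraries. The receptor AXL, at 60.6, 61.7 and 61 FPKM in SK-N-SH control and 0.227, 0.182 and 0.269 FPKM in SK_N_BE2 control, had no such spread and a 270.3-fold gap. AMOTL1 (3.09-fold), RBMS3 (3.08-fold) and IGFBP3 (1.68-fold) were the 3 targets higher in SK_N_BE2 control.

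The promoters of ANKRD1 and CCN2 are shown because both carry several copies of the TEAD site. Capitals mark TEAD sites (CATTCC, read here as its reverse complement GGAATG) and in CCN2 a TATA box (TATAAA). In ANKRD1 they also mark a match to the loose AP-1 pattern TGANTCA. That match reads TGATTCA, which is not the stricter AP-1 form TGAGTCA. The 250 bases before each start are given 5′ to 3′ from RefSeq on GRCh38.p14.
ANKRD1 (chr10:90921088-90921337, minus strand): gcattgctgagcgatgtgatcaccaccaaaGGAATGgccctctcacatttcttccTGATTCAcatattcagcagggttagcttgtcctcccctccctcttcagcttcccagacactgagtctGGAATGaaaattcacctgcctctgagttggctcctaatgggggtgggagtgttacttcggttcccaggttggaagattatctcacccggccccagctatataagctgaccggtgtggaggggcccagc
CCN2 (chr6:131951373-131951622, minus strand): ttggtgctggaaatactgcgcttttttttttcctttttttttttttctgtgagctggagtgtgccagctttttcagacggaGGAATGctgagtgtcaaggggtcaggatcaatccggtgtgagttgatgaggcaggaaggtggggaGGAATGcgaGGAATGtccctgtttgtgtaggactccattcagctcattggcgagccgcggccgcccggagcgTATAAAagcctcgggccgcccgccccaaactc
In ANKRD1 the TEAD letters begin at -220 and -128 and the AP-1 letters at -195. The deposited table starts ANKRD1 upstream of this RefSeq start, at 90921276, so by its coordinates the TEAD letters at -128 lie inside the gene. In CCN2 the TEAD letters begin at -169, -104 and -95, and the TATA box at -32. Over genes with a single start in the table, CATTCC was in 7 of the 13 promoters of the YAP and TAZ list, searched without the cut to 250 bases.

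Motif letters were then counted over wider groups, on both strands, for genes called with a difference of at least 2 on the log2 scale. Here each gene's whole promoter entry was searched, not cut to the 250 bases shown above. The TEAD letters were in 17.3% of the 382 promoters of genes higher in SK-N-SH control, 7.80% of the 295 of genes higher in SK_N_BE2 control and 10.4% of all 7020. The loose AP-1 letters TGANTCA were in 8.64%, 4.07% and 4.03% in the same order, and the stricter TGAGTCA in 6.28%, 2.03% and 2.72%. The TATA box was in 12.6%, 7.46% and 5.31%. The E-box CACGTG, the letters that MYC-family factors bind, was in 5.50% of the promoters of genes higher in SK-N-SH control, 9.83% of those higher in SK_N_BE2 control and 10.6% of all. TGACGTCA was in 2.36%, 2.71% and 3.83%. No test was made, and these motifs were shown out of 15 searched after the differences were known. Apart from TGAGTCA, which is one form of TGANTCA, none of them can lie inside another. With the first listed start of every gene (9946 promoters in all) the TEAD shares were 15.6%, 9.57% and 10.6%.

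Collagens and other matrix proteins had the widest median difference of the lists toward SK-N-SH control. Of 31 tested, 30 were higher there and 1 in SK_N_BE2 control, with a median of -3.42. Type I collagen COL1A1 was 741, 960.0 and 728 FPKM in SK-N-SH control and 10.6, 8.15 and 8.16 FPKM in SK_N_BE2 control, a 90.3-fold gap. Its partner chain COL1A2 averaged only 0.787 FPKM in SK-N-SH control and 0.0620 FPKM in SK_N_BE2 control, under the minimum level, so the levels of these collagen I chains lay far apart in SK-N-SH control. POSTN (periostin, which binds integrins) was 216, 276 and 207 FPKM in SK-N-SH control and 0.0749, 0.0429 and 0.0331 FPKM in SK_N_BE2 control, and TGFBI, a TGF-beta induced adhesion protein, 824, 920.3 and 836 FPKM in SK-N-SH control and 5.92, 6.31 and 4.71 FPKM in SK_N_BE2 control. Library values within a group stayed close beside these gaps, and the groups lay 4629.6-fold and 152-fold apart. Tenascin C (TNC, 564-fold) and fibrillin 2 (FBN2, 3895-fold) were similar. Elastin, ELN, was the exception, 1.53-fold higher in SK_N_BE2 control.

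Adhesion receptors and matrix proteases followed, with 24 of 28 higher in SK-N-SH control and 3 in SK_N_BE2 control. The integrin chains ITGA3 (193-fold) and ITGB5 (119-fold) and the plasminogen activator PLAT (62.5-fold) were among the widest. ITGA9 (10.6-fold), the laminin chain LAMA4 (4.46-fold) and TIMP3 (1.51-fold) were higher in SK_N_BE2 control, but the TIMP3 call was lost without a minimum level, with the replicate block and without any of 5 of the libraries. Contractile, caveolar and membrane scaffold genes went one way, 38 of 39 higher in SK-N-SH control and 0 in SK_N_BE2 control. Caveolin CAV1, the coat protein of membrane pits, was 131, 96 and 101 FPKM in SK-N-SH control and 0.358, 0.230 and 0.310 FPKM in SK_N_BE2 control, 365-fold apart. CAVIN1 (53.5-fold), S100A16 (101-fold) and annexin ANXA1 (109-fold) were next, and the tetraspanin CD9 alone was not called (adjusted p = 0.99). The summed level of this list ran from 6422 to 6732 FPKM in SK-N-SH control and from 810 to 862 FPKM in SK_N_BE2 control.

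Growth factor receptors held differences in both directions. Of 23 tested, 16 were higher in SK-N-SH control and 5 in SK_N_BE2 control. Besides AXL, SK-N-SH control had the hepatocyte growth factor receptor MET, at 32.5, 28.4 and 27.9 FPKM in SK-N-SH control and 0, 0.00832 and 0 FPKM in SK_N_BE2 control, the oncostatin M receptor OSMR (89.8-fold) and the TGF-beta receptor TGFBR2 (62.1-fold). SK_N_BE2 control had the Wnt receptor ROR2, at 16, 15.2 and 14.9 FPKM in SK_N_BE2 control and 0.00922, 0.0182 and 0.00920 FPKM in SK-N-SH control, the neurotrophin receptor NGFR (91.6-fold), the insulin-like growth factor receptor IGF1R (3.90-fold) and FGFR2 (126-fold). Among secreted cytokines and growth factors, 17 of 19 tested were higher in SK-N-SH control, led by FGF5 (386-fold), VEGFC (53.4-fold), TGFB1 (41.8-fold) and the activin subunit INHBA (349-fold). Another 13 of the 32 in the list were under the minimum level. A member near 0 FPKM in one group passed that level through the other alone, so its direction was set by the filter. HGF, the ligand of MET, was the 1 higher in SK_N_BE2 control, at 2.98, 2.95 and 2.88 FPKM in SK_N_BE2 control and 0.0383, 0.0377 and 0.0272 FPKM in SK-N-SH control. The ligand HGF and its receptor MET were thus highest in opposite groups.

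**Figure D4:**
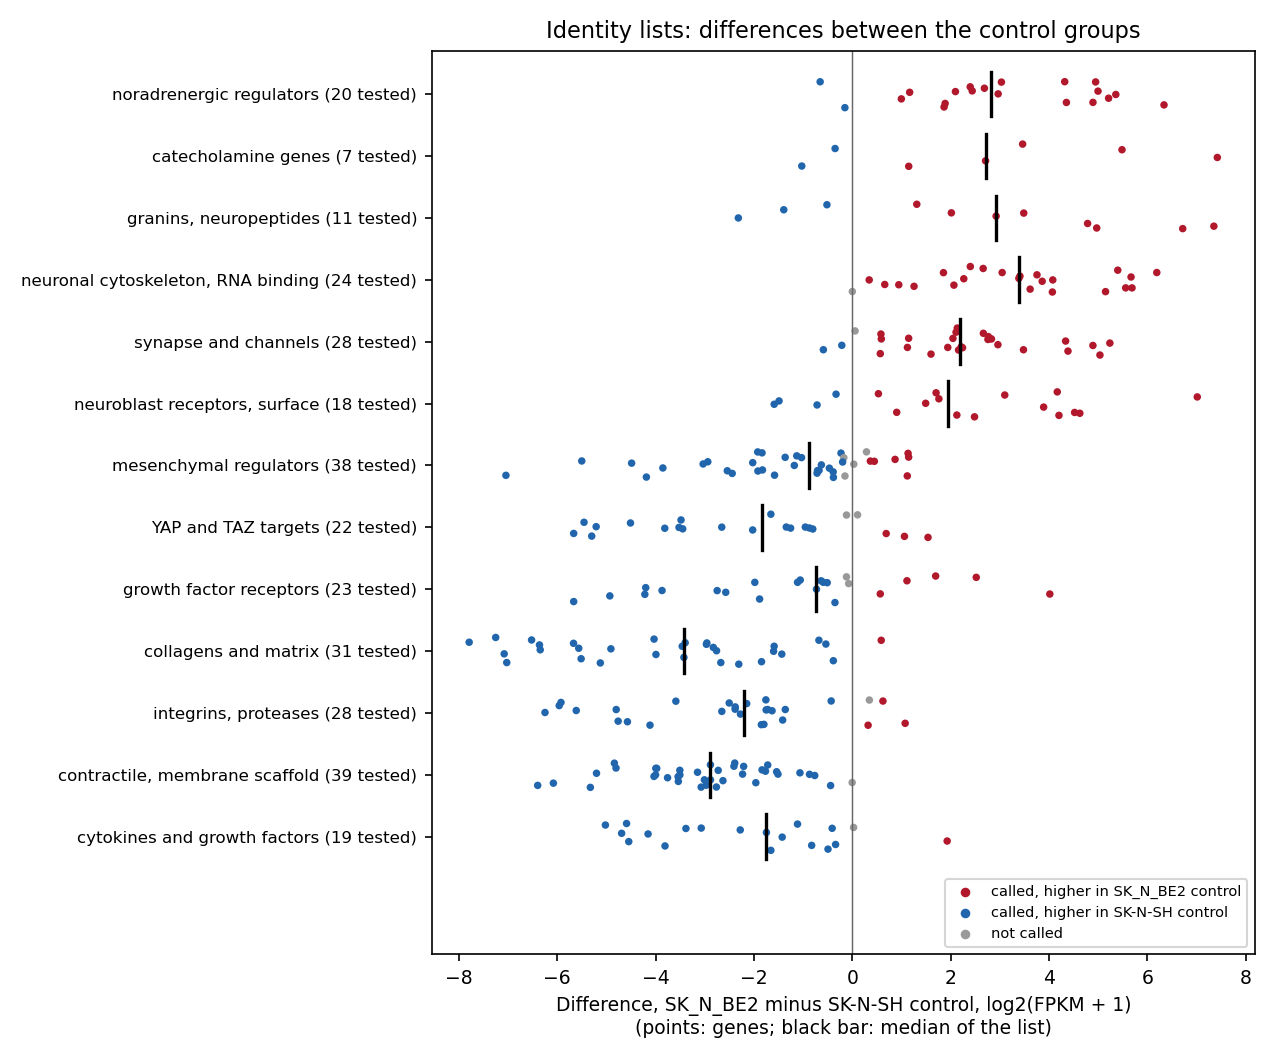
Difference between SK_N_BE2 and SK-N-SH control, log2(FPKM + 1), for each tested member of 13 identity lists, with a black bar at the list's median and colour for the call. The 6 noradrenergic and neuronal lists have medians of 1.94 to 3.40 and the other 7 have medians of -3.42 to -0.73.

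Markers of other cell types were read beside these lists. The fibroblast list overlaps the matrix list, and 9 of 10 tested were higher in SK-N-SH control, with summed levels of 1526 to 1802 FPKM against 81.0 to 87.6 FPKM in SK_N_BE2 control. Of its members, COL3A1 was 97-fold and FAP 361-fold higher in SK-N-SH control, while DPT was 4.29-fold higher in SK_N_BE2 control. Blood, endothelial and muscle markers summed to at most 1.14, 0.580 and 1.73 FPKM in any control library, and none was tested. The Schwann markers SOX10, S100B and MBP were under the minimum, and of 4 tested in the list, 3 were higher in SK_N_BE2 control, GAP43 (11.8-fold), NGFR and PMP22 (1.86-fold). Of the melanocyte markers TYRP1 was 27.8-fold higher in SK_N_BE2 control and PMEL 2.34-fold in SK-N-SH control. The simple keratins KRT18 (234-fold) and KRT8 (145-fold), whose many pseudogenes could share reads, and CLDN4 (4.32-fold) were higher in SK-N-SH control, EPCAM (2.75-fold) in SK_N_BE2 control, and CDH1 and KRT19 were under the minimum. What part another cell type has in these differences was not tested.

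Antigen presentation and interferon response genes were mostly higher in SK-N-SH control, 29 of 33 tested, with 3 higher in SK_N_BE2 control. HLA-E, a class I molecule seen by natural killer cells, was 53.9, 53.3 and 58.3 FPKM in SK-N-SH control and 1.51, 1.52 and 1.10 FPKM in SK_N_BE2 control, a 40.1-fold gap. The light chain B2M, which class I molecules share and which was named after its values were seen, was 1.77-fold higher in SK-N-SH control, far less than HLA-E. The near-identical membrane antiviral genes IFITM2 (168-fold) and IFITM3 (46.6-fold) and the DNA-sensing adaptor STING1 (101-fold) were the widest. OAS3 (14.1-fold), OAS1 (28.2-fold) and BST2 (5.84-fold), all interferon-induced, were higher in SK_N_BE2 control.

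Cell death genes were less one-sided, with 11 of 20 higher in SK-N-SH control and 5 in SK_N_BE2 control. The 4 with the widest gaps toward SK-N-SH control were the death receptors TNFRSF10B (33.1-fold), TNFRSF1A (16.8-fold) and FAS (57.5-fold) and the initiator caspase CASP8 (14.7-fold), at 4.19, 4.21 and 4.21 FPKM in SK-N-SH control and 0.250, 0.323 and 0.283 FPKM in SK_N_BE2 control. The 4 with the widest gaps toward SK_N_BE2 control were the protective BCL2 (5.25-fold), the BH3 proteins BCL2L11 (4.85-fold) and BID (1.79-fold), and the survivin gene BIRC5 (2.71-fold), which is also a mitotic gene.

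Proliferation genes were higher in SK_N_BE2 control. All 28 G2 and mitosis genes tested were called higher there, 28 of 28, but with a median of 1.10 the difference was modest. MKI67, the Ki-67 antigen of cycling cells, was 52.3, 48.1 and 55.4 FPKM in SK_N_BE2 control and 15.4, 10.04 and 10.9 FPKM in SK-N-SH control, 4.29-fold apart with no overlap. TOP2A (3.84-fold), UBE2C (3.70-fold) and BUB1B (3.85-fold) were similar. Of 35 G1 and S phase genes, 28 were higher in SK_N_BE2 control and 5 in SK-N-SH control. E2F1, which drives S phase genes, was 75, 80.9 and 78 FPKM in SK_N_BE2 control and 8.87, 7.50 and 5.60 FPKM in SK-N-SH control, a 10.6-fold gap. E2F2 (19.2-fold), the replication helicase subunit MCM3 (6.59-fold) and the replication factor CDC45 (7.45-fold) followed. CDKN1A, the p21 inhibitor of cyclin-dependent kinases, was 218, 358 and 309.8 FPKM in SK-N-SH control and 2.44, 2.11 and 2.14 FPKM in SK_N_BE2 control, 132-fold higher in SK-N-SH control with no overlap. The other 4 in that direction were the kinase inhibitors CDKN2B (43.9-fold), CDKN2A (3.62-fold) and CDKN2D (1.27-fold), and the repressor E2F7 (2.10-fold). Among the inhibitors that went with the rest, CDKN1C, named after its values were seen, was 4.70, 4.33 and 4.85 FPKM in SK_N_BE2 control and 0.520, 0.149 and 0.475 FPKM in SK-N-SH control.

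Sterol and fatty acid synthesis leaned the same way, 23 of 26 higher in SK_N_BE2 control with a median of 1.54. HMGCS1, at the head of the pathway, was 69.4, 71.8 and 65.8 FPKM in SK_N_BE2 control and 4.74, 5.50 and 5.21 FPKM in SK-N-SH control, 13.4-fold apart. The desaturase SCD (6.98-fold) and the sterol-sensing factor SREBF2 (8.36-fold) were next. The sister factor SREBF1 (1.69-fold), NSDHL (1.21-fold) and PMVK (1.13-fold) were higher in SK-N-SH control, and the PMVK call was lost in 8 of the alternatives.

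Glycolysis and hypoxia genes split, 14 of 29 higher in SK_N_BE2 control and 11 in SK-N-SH control with a median of 0.13. LDHA, the lactate dehydrogenase subunit that favours lactate production, was 139.7, 134 and 136 FPKM in SK-N-SH control and 7.28, 6.96 and 6.81 FPKM in SK_N_BE2 control, 19.4-fold higher in SK-N-SH control. LDHB, the subunit of oxidative tissues, was 35, 49.4 and 44 FPKM in SK_N_BE2 control and 11.2, 9.54 and 10.3 FPKM in SK-N-SH control, 4.13-fold higher in SK_N_BE2 control. The transcript with the higher level therefore differed: LDHB was above LDHA in each SK_N_BE2 control library and LDHA above LDHB in each SK-N-SH control library. The lactate exporter SLC16A3 (61.3-fold) and the hypoxia factor EPAS1 (29.7-fold) went with LDHA, and ALDOC (5.28-fold) and EGLN3 (74.9-fold) with LDHB. In one-carbon metabolism the serine synthesis genes PHGDH (4.74-fold) and PSAT1 (3.37-fold) and the folate enzymes MTHFD2 (4.78-fold) and MTHFD1 (3.97-fold) were higher in SK_N_BE2 control. The redox members SOD3 (extracellular superoxide dismutase, 102, 94.3 and 86 FPKM in SK-N-SH control and 0.0275, 0.0550 and 0.0284 FPKM in SK_N_BE2 control), GPX8 (at least 1121-fold), GPX1 (5.08-fold) and NQO1 (3.06-fold) were higher in SK-N-SH control. Of that list 13 of 23 tested were higher in SK_N_BE2 control and 7 in SK-N-SH control.

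Genes of the unfolded protein and amino acid response went in both directions. Of 22 genes, 8 were higher in SK_N_BE2 control, among them the factor ATF4 (2.48-fold), the amino acid transporter SLC7A5 (3.96-fold), XBP1 (2.02-fold) and VLDLR (32.4-fold). The 11 higher in SK-N-SH control included the folding enzyme PDIA4 (3.70-fold), the degradation factor EDEM1 (6.29-fold), SESN2 (3.02-fold) and CREB3L1 (100.3-fold), a membrane-bound factor of collagen-secreting cells. Stress granule, SUMO and nuclear pore genes, the setting of the series' G3BP1 and RANBP2, leaned to SK_N_BE2 control, 23 of 31 higher, with a median of only 0.43. G3BP1, which nucleates stress granules, was 25.4, 25 and 24.4 FPKM in SK_N_BE2 control and 13.5, 13.1 and 12.2 FPKM in SK-N-SH control, 1.93-fold apart, and RANBP2, the pore-bound SUMO ligase, 1.80-fold. The exchange factor RCC1 (2.86-fold), RANGAP1 (2.58-fold) and RAN (2.49-fold) had the widest gaps toward SK_N_BE2 control. The SUMO ligase PIAS3 (6.94-fold), which had the widest gap of the list, PIAS2 (1.94-fold) and SUMO3 (1.23-fold) were higher in SK-N-SH control.

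Chromatin genes leaned to SK_N_BE2 control too, 20 of 26 higher and 5 lower. RCOR2, a corepressor of immature neurons, was 22.7, 19.1 and 20.7 FPKM in SK_N_BE2 control and 1.84, 0.715 and 1.6 FPKM in SK-N-SH control, 15-fold apart, and its demethylase partner KDM1A (4.27-fold), DNMT3A (5.03-fold) and SMARCA4 (3.62-fold) were next. REST, the repressor that silences neuronal genes outside neurons, was 5.94, 5.09 and 5.56 FPKM in SK-N-SH control and 2.34, 2.19 and 1.95 FPKM in SK_N_BE2 control, 2.56-fold higher in SK-N-SH control, beside ZNF521 (10.9-fold), SMARCA1 (1.83-fold) and HDAC1 (1.68-fold). The stemness list, a theme of the series' title, had no common direction, with 12 of 21 higher in SK_N_BE2 control and 9 in SK-N-SH control. MSI1 (33.5-fold), KIT (178-fold) and SOX11 (6.91-fold) were on the first side. HMGA2, at 14.5, 13.6 and 13.2 FPKM in SK-N-SH control and 0 FPKM in all 3 in SK_N_BE2 control, IGF2BP2 (346-fold), ITGA6 (504-fold) and the surface enzyme NT5E (40.8-fold) were on the second. TSPYL5, the gene the series targets, was 24, 24.4 and 25.8 FPKM in SK_N_BE2 control and 13.1, 13.4 and 12.2 FPKM in SK-N-SH control, 1.92-fold higher in SK_N_BE2 control with no overlap. Of the 9 tested members of the TSPYL5 family, 7 were higher in SK_N_BE2 control, led by SET (2.42-fold) and NAP1L4 (2.30-fold), and TSPYL2 (1.41-fold) and TSPYL1 (1.14-fold) in SK-N-SH control. The TSPYL1 call was lost with voom and without any of 4 of the libraries.

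**Figure D5:**
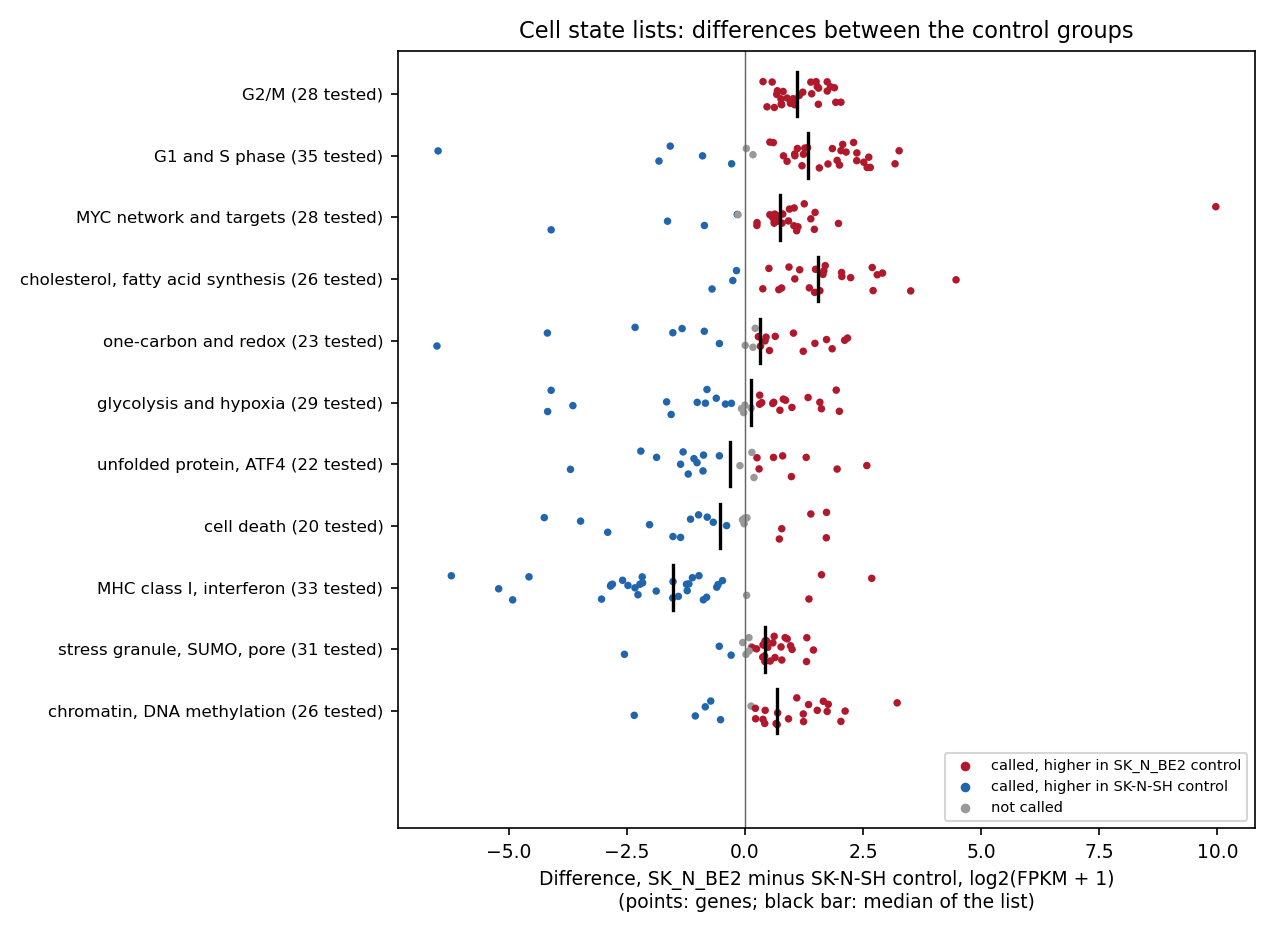
Difference between SK_N_BE2 and SK-N-SH control, log2(FPKM + 1), for each tested member of 11 cell state lists, with a black bar at the median and colour for the call. The G2/M points all lie above 0, the MHC class I points mostly below, and the glycolysis list spreads to both sides with a median of 0.13.

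Ribosomal protein, mitochondrial and early response genes were read as housekeeping and signalling lists. Ribosomal protein genes had a median of 0.32, with 19 of 31 higher in SK_N_BE2 control and 4 in SK-N-SH control. RPL22 was 2.20-fold higher in SK_N_BE2 control and its paralogue RPL22L1 2.72-fold higher in SK-N-SH control, and pseudogenes could share reads of both. Mitochondrial transcripts had a median of 0.02, 5 of 15 called in each direction, which became 2 in each direction without a minimum level. MT-RNR2 was 7819, 7502 and 7093 FPKM in SK_N_BE2 control and 3072, 2648 and 2531 FPKM in SK-N-SH control, MT-CYB 2.26-fold higher in SK-N-SH control. Early response genes had a median of -0.06, with 8 and 9 of 21 higher in SK_N_BE2 and SK-N-SH control. SPRY2, which dampens receptor signalling, was 10.2-fold higher in SK-N-SH control, and ATF3 (8.43-fold) and DUSP2 (13.3-fold) in SK_N_BE2 control.

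Position along the body axis is recorded by HOX genes, and few were on. Of 38 in the list, 20 had no read in any control library and 8 were tested, all of them in the HOXC and HOXD clusters. HOXC8 was 15.4, 14.5 and 13.7 FPKM in SK_N_BE2 control and 2.10, 2.77 and 1.61 FPKM in SK-N-SH control, 6.72-fold higher in SK_N_BE2 control, with HOXC4 (4.34-fold), HOXC9 (3.46-fold) and HOXC10 (61.3-fold). HOXD8 (adjusted p = 0.898) and HOXD9 (0.65) were not called, and none of those tested was called toward SK-N-SH control.

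Long non-coding and imprinted genes held some of the widest differences. MEG3, a maternally expressed RNA of the imprinted region that also holds DLK1, was 32, 33.5 and 39.6 FPKM in SK_N_BE2 control and 0 FPKM in all 3 in SK-N-SH control, and no SK-N-SH control library had a read. The paternally expressed NDN (24.7-fold) and the growth-linked host gene SNHG1 (6.59-fold) were also higher in SK_N_BE2 control. H19, named after its values were seen, was 13.5, 3.17 and 2.29 FPKM in SK_N_BE2 control and 0.0556, 0.0365 and 0.0554 FPKM in SK-N-SH control, and SK_N_BE2 control library 1 was more than 4 times the others. NEAT1, the scaffold of paraspeckles, was 33.3, 40.4 and 42.4 FPKM in SK-N-SH control and 6.74, 8.14 and 9.33 FPKM in SK_N_BE2 control, 4.80-fold higher in SK-N-SH control, beside MIR100HG (3.12-fold), LINC01116 (1.98-fold) and CYTOR (5.80-fold). Of 21 tested in the list, 13 were higher in SK_N_BE2 control and 5 in SK-N-SH control. The largest non-coding differences over all genes were MYCNOS, MEG3, AL359853.1, KC877982.1 and the pseudogene RPS28P7 toward SK_N_BE2 control, and MIR503, LINC02154, AC083967.1, FBXL21 and AC093673.1 toward SK-N-SH control.

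Of 181 microRNA loci tested, 39 were higher in each group, and the 43.1% called was below the 79.1% of all genes. The loci described here were picked after their values were seen. Per the labels the libraries were not made with a small RNA kit, so reads at a locus can come from precursor or host transcripts, and mature levels were not measured. The mature sequences of 7 loci with reads almost wholly in one group are given from RefSeq, with the seed (bases 2 to 8) in capitals to show which of these 7 share a seed. They are not all the loci that differed.
hsa-miR-221-3p: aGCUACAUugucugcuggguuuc
hsa-miR-222-3p: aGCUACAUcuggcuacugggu
hsa-miR-503-5p: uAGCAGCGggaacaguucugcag
hsa-miR-424-5p: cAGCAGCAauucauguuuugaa
hsa-miR-132-3p: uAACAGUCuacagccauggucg
hsa-miR-212-3p: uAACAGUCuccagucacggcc
hsa-miR-656-3p: aAUAUUAUacagucaaccucu
The pairs miR-221 with miR-222 and miR-132 with miR-212 have the same seed, and miR-503 with miR-424 share bases 2 to 7.

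MIR221 and MIR222, a neighbouring pair on the X chromosome whose mature forms are known to target the p27 and KIT transcripts, were read in SK-N-SH control only. MIR221 was 15.6, 31.7 and 26.8 FPKM in SK-N-SH control and 0 FPKM in all 3 in SK_N_BE2 control, and MIR222 7.32, 7.21 and 10.2 FPKM in SK-N-SH control and 0 FPKM in all 3 in SK_N_BE2 control, while their host transcript MIR222HG averaged 12.3 FPKM in SK-N-SH control and 0.0350 FPKM in SK_N_BE2 control. In the same libraries CDKN1B, which encodes p27, was 3.53-fold higher in SK_N_BE2 control and KIT 178-fold higher, and a link to these loci was not tested. The MIR503 cluster on the same chromosome was similar, with MIR503 at 156, 247 and 191 FPKM in SK-N-SH control and 3.30, 0 and 0 FPKM in SK_N_BE2 control and its host gene MIR503HG 39.2-fold apart. MIR424 in that cluster was 4.38, 2.70 and 1.64 FPKM in SK-N-SH control and 0 FPKM in all 3 in SK_N_BE2 control. Of its other loci, MIR542 (at least 11.1-fold), MIR450A1 (at least 6.61-fold) and MIR450A2 (at least 7.23-fold) were also higher in SK-N-SH control, as was MIR450B with 27 reads against 1. On chromosome 17, MIR212 was 6.34, 8.17 and 7.78 FPKM in SK-N-SH control and 0.532, 0 and 0 FPKM in SK_N_BE2 control and MIR132 1.06, 3.14 and 4.24 FPKM in SK-N-SH control and 0.579, 0 and 0 FPKM in SK_N_BE2 control. In the other direction MIR656, in the imprinted cluster with MEG3, was 12.7, 12 and 15.5 FPKM in SK_N_BE2 control and 0 FPKM in all 3 in SK-N-SH control. The host of the miR-17 family, MIR17HG, averaged 2.93 FPKM in SK_N_BE2 control and 0.626 FPKM in SK-N-SH control. These loci are short and rest on few reads, 153 for MIR221 and 16 for MIR424 over the group.

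Along the genome, most windows had a small median difference, but neighbouring windows could lean the same way. In windows of 5 Mb with at least 15 tested genes, 315 of 388 medians lay between -0.5 and 0.5. Every such window of chromosome 18 was below 0 (-0.92 to -0.22), as was every one from 5 to 60 Mb of chromosome 3 (-0.92 to -0.25). From 105 to 135 Mb of chromosome 11 all were above 0 (0.07 to 1.10). These runs were picked after their values were seen, and their cause was not tested. There were 7 windows with a median above 1, 4 of them on chromosome 2, and 1 below -1. The window at 170 to 175 Mb of chromosome 4, which holds HAND2, had a median of 1.92 with 15 of 17 genes higher in SK_N_BE2 control, among them the centrosome gene CEP44 (23.2-fold), the histone deacetylase subunit SAP30 (4.35-fold) and the chromatin protein HMGB2 (3.61-fold). The window at 205 to 210 Mb of chromosome 1 had the lowest median, -1.05, with 20 of 33 genes higher in SK-N-SH control. Over whole chromosomes, chromosome 18 had the lowest median at -0.48 and 139 of 214 genes higher in SK-N-SH control, and chromosome 2 had 545 of 1042 higher in SK_N_BE2 control with a median of 0.34.

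Spread between libraries was small in both groups. The median SD of log2(FPKM + 1) was 0.0727 in SK_N_BE2 control and 0.0887 in SK-N-SH control, which had the larger SD in 56.9% of genes. The most variable protein-coding genes of SK-N-SH control included the stromelysin MMP3, at 2.17, 11 and 8.36 FPKM in SK-N-SH control and 0 FPKM in all 3 in SK_N_BE2 control, the peptide neurotensin, NTS, at 0.449, 2.89 and 2.41 FPKM in SK-N-SH control and 0.301, 0.0753 and 0.155 FPKM in SK_N_BE2 control, and BOLA2B, at 0.865, 1.12 and 32.6 FPKM in SK-N-SH control and 0.557, 0.558 and 0.619 FPKM in SK_N_BE2 control. BOLA2B was high in 1 library alone and has a near-identical copy, as do U2AF1, SERF1B and CCZ1, which were the most variable of SK_N_BE2 control with the histone gene HIST1H3B and DEFB131B, so their values are uncertain. The NTS call toward SK-N-SH control was lost without any of SK-N-SH control libraries 2 and 3 and SK_N_BE2 control libraries 2 and 3.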

How the data were processed

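RNA was sequenced in 12 libraries, of which the 6 with the control hairpin were used. A NEBNext Ultra kit was used on 3 µg RNA, per the labels' protocols. HISAT2 2.0.5, featureCounts 1.5.0-p3 and the build mm10 are named in the submitters' processing notes. The genes are human, and all 58735 starts and ends match GENCODE release 29, and coordinates are on GRCh38. No label or note used here says whether counting used strand. The authors deposited FPKM per gene and library. The product of FPKM and gene length came in whole steps in 100% of values (tolerance 0.05 reads), which gave the reads per library. In every library the authors' scaling kept the same proportion to size factors computed by median of ratios.

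Groups follow the sample titles. The test was limma 3.58.1 (R 4.3.3) on log2(FPKM + 1), fitted to the 6 libraries, moderated by empirical Bayes with a trend on intensity, two-sided, with Benjamini-Hochberg adjustment over all 15981 genes with a mean of at least 0.5 FPKM and a threshold of 0.05. Tables were made with Python 3.11.15. Of 925 list symbols in 40 lists, 922 were matched, and 3 with 2 Ensembl IDs each were left out. In each list the text names up to 4 called genes with the largest differences per direction and those against most of the list, all members of the noradrenergic, catecholamine and mesenchymal factor lists as needed, the largest differences and the most variable genes. The members and lists were chosen with earlier results of these data known. In simulated libraries (14511 genes) the fit recovered 8.16%, 46.9%, 81.2% and 97.9% of genes changed 1.25, 1.5, 2 and 4-fold, and 5.08% of calls were false. Few genes were changed there, none of them low in reads, and all genes had the same fixed dispersion. In the real libraries 79.1% of genes were called, so these rates hold for the simulated setting only. Some genes that this rule takes are not reported here.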

Additional observations from a re-analysis of the deposited data

How the results depend on the processing

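The count of 12643 called genes ran from 9505 with a minimum of 2 FPKM, which tests fewer genes, to 15576 with none. It was 12650 on a TPM scale, 12645 with median centring, 12704 in the fit to all 12 libraries, 12593 without the intensity trend, 12565 with a pseudocount of 0.1 and 12659 with voom on the recovered reads. Leaving out each library gave 12152 to 12441. Genes called with a difference of at least 1 numbered 4963, and 6226, 6615 and 6842 on the TPM scale, with the pseudocount of 0.1 and with voom. Under voom the split was 6742 higher in SK_N_BE2 control and 5917 in SK-N-SH control. Replicate numbers did not pair the samples (r of same-numbered deviations -0.0159, 0.0016 and 0.047), and the replicate block gave 12537 calls.

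Of 337 named genes, 310 kept call and direction under every alternative run, and 1238 of 1280 list counts stayed within 1.5 times. The cause of the others was not tested, apart from settings that test fewer or more genes. Without a minimum level, counts higher in SK_N_BE2 control became 8 for catecholamine, 5 for MHC and interferon and 2 each for cytokine, epithelial, blood, endothelial, muscle and mitochondrial genes, and those higher in SK-N-SH control became 1 for HOX, 2 each for Schwann, melanocyte and mitochondrial genes and 3 for endothelial genes. With a minimum of 2 FPKM, counts higher in SK_N_BE2 control became 1 for MHC and interferon and 0 for integrin, cytokine, melanocyte, epithelial and fibroblast genes, and those higher in SK-N-SH control became 0 for Schwann and melanocyte genes. Among protein-coding genes alone the long non-coding and imprinted list gave 6 and 0. Without the trend, 1 member of a list not described here was higher in SK_N_BE2 control. With voom, 1 noradrenergic factor, 1 synapse gene and 1 TSPY and NAP gene were higher in SK-N-SH control. Leaving out each library gave 1 to 2 for each of these last 4 counts and 0 to 1 for Schwann genes higher in SK-N-SH control.

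Differences that changed sign were all of genes not called. CCZ1 was 0.0031 with median centring, 0.019 with voom and -0.31 to 0.18 on leaving out a library. The others changed sign on leaving out a library: ID1 ranged from -0.361 to 0.0169, HIST1H4J from -0.694 to 0.0704, SERF1B from -0.14 to 0.45, HIST1H3B from -0.297 to 0.25, MT-CO2 from -0.00038 to 0.0518 and JUNB from -0.0096 to 0.0865.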

Other observations

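Transcription factors as a class were not one-sided. Of 1037 tested genes with an annotated factor family, 454 were higher in SK_N_BE2 control and 418 in SK-N-SH control, and the 84.1% called is near the 79.1% of all genes. Homeobox genes had 37 of 67 higher in SK_N_BE2 control and 21 in SK-N-SH control, GATA zinc fingers 6 of 8 and 1, and E2F genes 7 of 10 and 2. The Rel family, which includes the NF-kappa-B subunits, had 6 of 8 higher in SK-N-SH control and 2 in SK_N_BE2 control, and its member RELB was 7.27, 7.28 and 6.08 FPKM in SK-N-SH control and 0.366, 0.560 and 0.616 FPKM in SK_N_BE2 control. The C2H2 zinc fingers, the largest family, divided almost evenly, with 195 and 203 of 504. This grouping was chosen after the differences were known, and no family was tested.

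Several factors outside the identity lists were read almost wholly in a single group. HMX1, a homeodomain factor of sensory and sympathetic ganglia, was 25.3, 24.7 and 25.1 FPKM in SK_N_BE2 control and 0, 0.0247 and 0.0749 FPKM in SK-N-SH control. SCRT1, a neuronal relative of the SNAI repressors, was 198-fold higher in SK_N_BE2 control, and so were ZNF536 (302-fold), FEV (118-fold), an ETS factor of serotonin neurons, and PROX1 (97.2-fold). In the other direction MSX1, a homeodomain factor of craniofacial mesenchyme, was 54.6, 44.2 and 59.8 FPKM in SK-N-SH control and 0.248, 0.0553 and 0.285 FPKM in SK_N_BE2 control, and the nuclear body gene SP100 was 219-fold higher in SK-N-SH control. Of 129 small nucleolar RNA genes tested, 39.5% were called, against 79.1% of all genes. Of the called, 42 were higher in SK_N_BE2 control and 9 in SK-N-SH control. As at the microRNA loci, reads there can come from host transcripts. These factors and RNA genes were also chosen after their values were seen.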
